A study of Mus musculus with 19 samples.

Results

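*Dusp1*, *Dusp2*, *Dusp4*, *Dusp5*, *Dusp6* and *Dusp10* encode MAP kinase phosphatases and were followed by name in the gene expression rows of a thymus CITE-seq series, as 6 of 28692 genes measured. CITE-seq reads polyadenylated RNA and surface proteins, through DNA-tagged antibodies, from the same single cells. The series held 19 lanes from 17 mice aged 4 to 8 weeks. It compared wild-type C57BL/6 (B6) mice with mice whose thymocytes are directed to the CD4+ or the CD8+ T cell lineage, and it asked when these lineages separate. The 6 genes were described here over genotypes, stages and cell types.

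The wild-type group held 5 mice, of which WT 1 to WT 3 were sorted for CD5+TCRb+ thymocytes and WT 4 and WT 5 were unsorted total thymocytes. CD4-fated mice were AND and OT-II, which carry transgenes for MHCII-specific T cell receptors, and MHCI-/- mice, which lack *B2m* and keep a diverse receptor repertoire. CD8-fated mice were F5 and OT-I, which carry transgenes for MHCI-specific receptors, and MHCII-/- mice, which lack *H2-Ab1* and also keep diverse receptors. Each of these genotypes was given by 2 mice. The MHC-deficient mice were sorted for CD5+TCRb+ cells, and all receptor transgenics were unsorted. Per the study's methods AND and F5 mice were also *Rag1*-/-, so that the transgenic receptor was the single receptor their cells could make, whereas the OT-I and OT-II lines are not described in that way. Sorting therefore divided the MHC-deficient from the transgenic mice. Comparisons of CD4-fated with CD8-fated mice at a stage were made within such families of genotypes.

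T cell receptor signaling runs through Ras, MEK and ERK, and in parallel through JNK and p38, and double positive (DP, CD4+CD8+) thymocytes need a graded ERK signal to be positively selected into CD4 or CD8 single positive (SP) cells. MAP kinase phosphatases remove the activating phosphates from the threonine and tyrosine of these kinases. Many of them are themselves induced when the kinases are active, which makes them feedback inhibitors as well as readouts of the pathway. *Dusp5* encodes a nuclear and *Dusp6* a cytoplasmic phosphatase, and both act on ERK. *Dusp1*, *Dusp2* and *Dusp4* encode inducible nuclear phosphatases with broader substrates, of which *Dusp2* was first described in activated T cells as PAC-1. *Dusp10* encodes a phosphatase that acts mainly on JNK and p38.

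Promoter sequences were printed for the members whose first 250 bases before the RefSeq start held a motif of a signal-regulated factor, because gates and splits by signaling proteins are used below. RefSeq windows of build GRCm38.p6 were found for 5 of the 6 genes. Capitals mark matches on either strand to the motifs searched, namely the cyclic AMP response element TGACGTCA, the AP-1 site TGACTCA, the E-box CACGTG, the EGR sites GCGGGGGCG and GCGTGGGCG, the ETS site CCGGAAG and the CArG box bound by serum response factor. Each sequence is written 5′ to 3′ in the direction of the gene.
Dusp1, minus strand, chr17:26508473-26508722: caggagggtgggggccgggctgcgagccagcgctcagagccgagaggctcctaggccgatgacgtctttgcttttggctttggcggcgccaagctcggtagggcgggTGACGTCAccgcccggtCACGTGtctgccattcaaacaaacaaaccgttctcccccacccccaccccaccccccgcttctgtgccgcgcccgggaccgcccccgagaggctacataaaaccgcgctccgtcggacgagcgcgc
Dusp2, plus strand, chr2:127335909-127336158: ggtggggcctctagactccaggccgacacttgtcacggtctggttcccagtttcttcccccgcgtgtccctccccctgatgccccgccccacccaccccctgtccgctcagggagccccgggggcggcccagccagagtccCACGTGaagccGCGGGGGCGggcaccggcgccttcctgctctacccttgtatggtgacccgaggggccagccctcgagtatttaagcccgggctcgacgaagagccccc
Dusp5, plus strand, chr19:53528895-53529144: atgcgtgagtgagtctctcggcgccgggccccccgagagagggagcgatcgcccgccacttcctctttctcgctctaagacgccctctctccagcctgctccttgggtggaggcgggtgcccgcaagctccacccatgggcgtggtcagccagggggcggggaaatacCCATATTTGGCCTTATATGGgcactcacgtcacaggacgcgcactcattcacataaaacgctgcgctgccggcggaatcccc
The *Dusp1* window held 1 cyclic AMP response element 143 bases and 1 E-box 126 bases before the start. *Dusp2* held 1 E-box 109 bases and 1 EGR site 98 bases before the start. In *Dusp5*, 2 adjoining CArG boxes lay 82 and 72 bases before the start. Of all 32851 RefSeq windows of this length, 1.55% held the cyclic AMP response element, 4.46% the AP-1 site, 6.02% the E-box, 3.06% an EGR site, 6.91% the ETS site and 1.47% a CArG box. The windows of *Dusp6* (chr10:99262981-99263230, plus strand) and *Dusp10* (chr1:184034131-184034380, plus strand) held none of these letters. *Dusp4* lies at chr8:34807610-34819894 on the same build. A match describes the letters of a window and was not tested as a site.

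The lanes held 85389 cell barcodes with 9893333 to 43303999 RNA UMIs (unique molecular identifiers, counted molecules) a lane, and 69246 cells were kept. Pairs of lanes shared 0 to 35 barcodes, at most 1.27% of the smaller lane. *B2m* stood at 46.7 and 48.6 CPM (counts per 1000000 counts of a sum) over all cells of the MHCI-/- mice against 404 to 1250.4 CPM in the other 15 mice. *H2-Ab1*, which thymocytes make little of, stood at 8.74 and 8.86 CPM in the MHCII-/- mice and at 3.05 to 269 CPM elsewhere, and so did not check that label. In the cells kept, the members gave 6319 UMIs for *Dusp1*, 70424 for *Dusp2*, 1438 for *Dusp4*, 9721 for *Dusp5*, 7850 for *Dusp6* and 26560 for *Dusp10*, so that *Dusp4* was the least precisely measured. UMIs were summed over the cells of a mouse within a gate and given as CPM of that sum. They count 3′ ends, and levels were not compared between genes.

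Members differed between 2 sets of lanes. WT 5, OT-I 2 and OT-II 2 came from the last 4 lanes of the third experiment, and WT 4, OT-I 1 and OT-II 1 from its first 4. In 20 of 20 pairs of the same genotype and gate, *Dusp2* was lower in the mouse of the last lanes, with a median ratio of 0.425 and a range of 0.314 to 0.937. *Dusp10* was lower in 18 of 20 pairs, with a median ratio of 0.676, and *Dusp1* in 16 of 19, with a median ratio of 0.759. *Dusp5* was lower in 3 of 20 pairs, with a median ratio of 1.40, and *Dusp6* in 10 of 20. All pairs are gates of WT 4 with WT 5, OT-I 1 with OT-I 2 and OT-II 1 with OT-II 2, and so are not independent. The share of all genes with such a shift was not counted. These lanes were also shallower, with medians of 1493 to 3142 RNA UMIs a cell against 2798 to 7150 in the first 4. Lane set, depth and mouse cannot be told apart. Wild-type fits carried the mouse as a block.

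Thymocytes were gated by surface protein alone, with CD4 and CD8a to set the lineage, CD69 to mark recent receptor signaling and CD127, the IL-7 receptor alpha chain, to mark later cells. The gates were resting DP (CD69-CD127-), signaled DP (CD69+CD127-), late DP (CD69+CD127+), early CD4 SP and early CD8 SP (CD69+), and late CD4 SP and late CD8 SP (CD69-). The gates were checked by mean RNA in the wild-type mice, with the recombinase gene *Rag1* at 1038 CPM in resting DP, *Itm2a*, a gene of signaled thymocytes, at 1467 CPM in signaled DP, and *Il7r* at 224 CPM in late DP. The signaled DP gate of the unsorted mice kept more *Rag1*, with 612 CPM in WT 4 and 1318 CPM in WT 5 against 25.1 to 80.1 CPM in WT 1 to WT 3, whose resting DP cells held 431 to 574 CPM. *Itm2a* in that gate was lowest in WT 5, at 518 CPM, against 1116 to 2125 CPM in the other mice. The part of these cells in the members' differences was not tested. AND 2 had the fewest antibody UMIs of the lanes, 4484116, and its CD127 threshold lay at 57.1 protein UMIs per 10000, where those of the other lanes ran from 6.24 to 15.4, so that its gates are less certain. Fold changes and adjusted p values below are from edgeR's quasi-likelihood test, with Benjamini-Hochberg adjustment over all genes tested. A gene was called at an adjusted p under 0.05. Fits within wild-type mice had the mouse as a block. Fits between lineages within a gate or bin had a term for the family, and the comparison of late with early bins had the mouse as a block. In fits with the mouse as a block, the SEs and p values rest on the spread left once each mouse's own level is removed. The stage fit pooled that spread over all gates. The lineage fits within a gate or bin rest on the spread between mice.

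Both ERK phosphatases were higher in signaled than in resting DP cells. In the wild-type mice, taken from WT 1 to WT 5, *Dusp5* stood at 24.4, 21.1, 9.07, 16.2 and 20.5 CPM in resting DP and at 75.3, 72.6, 68.8, 53.1 and 52.0 CPM in signaled DP. Every signaled value lay above every resting value, and the log2 fold change was 1.72 (SE 0.13, adjusted p = 2.2e-12). *Dusp6* rose from 18.2, 19.9, 8.28, 11.8 and 11.5 CPM to 65.9, 53.7, 54.4, 47.7 and 39.9 CPM. The groups again did not overlap, and the log2 fold change was 1.88 (SE 0.18, adjusted p = 2.43e-10), or 3.67-fold.

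Both genes stayed above the resting level in early CD4 SP cells and had lower means in late CD4 SP cells. *Dusp5* stood at 41.7 ± 13.4 CPM in late DP (mean ± SD, n = 5 here and for the next values), 44.7 ± 10.0 in early CD4 SP and 21.0 ± 3.18 in late CD4 SP. *Dusp6* stood at 47.0 ± 11.6, 40.9 ± 7.15 and 14.7 ± 4.68 CPM in the same gates. Against resting DP, early CD4 SP cells had log2 fold changes of 1.41 (SE 0.13, adjusted p = 1.27e-11) for *Dusp5* and 1.75 (SE 0.17, adjusted p = 1.05e-10) for *Dusp6*. Signaled DP, early CD4 SP and late DP, the highest 3 gates for both genes, overlapped in their mouse values.

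CD8 SP cells held less of both. *Dusp5* stood at 33.7, 27.0, 24.9, 16.3 and 22.6 CPM in early CD8 SP and at 3.81, 4.19, 6.51, 6.35 and 6.46 CPM in late CD8 SP, the lowest of the 7 gates in each mouse. Early CD8 SP lay below early CD4 SP in 5 of 5 mice for both genes, by -0.78 (SE 0.16, adjusted p = 0.000502) on the log2 scale for *Dusp5* and by -0.90 (SE 0.21, adjusted p = 0.003) for *Dusp6*. Late CD8 SP cells had 3.59-fold less *Dusp5* than late CD4 SP cells, a log2 fold change of -1.84 (SE 0.22, adjusted p = 8.85e-08). For *Dusp6*, late CD8 SP stood at 12.05 ± 4.00 CPM and did not pass the test against late CD4 SP, at -0.44 (SE 0.26, adjusted p = 0.168).

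*Dusp2*, an inducible nuclear phosphatase, was also higher in signaled DP cells. In resting DP it stood at 148, 161, 112, 129 and 41.2 CPM and in signaled DP at 482, 454, 430.1, 402 and 131 CPM. WT 5, from the last lanes, was the lowest mouse in every gate, yet it too was higher in signaled than in resting DP, and the log2 fold change over the 5 mice was 1.63 (SE 0.13, adjusted p = 3.14e-12). *Dusp2* remained above resting DP in late DP at 1.35, early CD4 SP at 1.19, late CD4 SP at 1.01 and early CD8 SP at 1.35 on the log2 scale, with adjusted p values of 1.16e-09, 5.04e-10, 3.24e-08 and 1.48e-10. Early CD8 SP (258 ± 83.9 CPM) did not lie below early CD4 SP (236 ± 79.3 CPM), with a log2 fold change of 0.16 (SE 0.13, adjusted p = 0.439). In late CD8 SP cells the test called *Dusp2* higher than in resting DP, at 0.43 (SE 0.13, adjusted p = 0.00569), while the CPM was higher in 2 of 5 mice.

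*Dusp1*, an immediate early gene, stood at 23.0, 15.4, 18.1, 11.4 and 9.59 CPM in resting DP and at 42.3, 29.5, 42.1, 30.5 and 29.0 CPM in signaled DP. The groups did not overlap, and the log2 fold change was 1.16 (SE 0.18, adjusted p = 3.24e-06). Late DP varied most, with 58.0, 29.0, 47.1, 24.0 and 14.3 CPM, and WT 5 was again lowest. Early CD4 SP cells held 29.9 ± 7.64 CPM and early CD8 SP cells 15.6 ± 4.60, a log2 fold change between them of -0.93 (SE 0.22, adjusted p = 0.00367). Late CD8 SP had the least, 8.37, 7.33, 4.34, 8.08 and 3.52 CPM, below resting DP in 5 of 5 mice at -0.87 (SE 0.25, adjusted p = 0.00374).

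*Dusp4* was scarce, with 255 UMIs over 15445 wild-type resting DP cells and 103 over 3813 signaled DP cells. It stood at 3.80, 3.99, 3.55, 5.14 and 3.39 CPM and 11.5, 6.79, 9.24, 11.2 and 4.84 CPM in these gates. Each mouse was higher in signaled DP, although the groups overlapped, and the log2 fold change was 1.08 (SE 0.29, adjusted p = 0.00271). The level that the filter on low counts asks for was reached by 4 of 5 signaled and 0 of 5 resting DP sums. No other stage comparison called *Dusp4*, and its adjusted p values there ran from 0.0579 to 0.928.

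*Dusp10*, the JNK and p38 phosphatase, was not called in signaled against resting DP. It stood at 106, 79.7, 101, 83.4 and 46.7 CPM in resting DP and at 113, 111, 97.5, 78.5 and 49.0 CPM in signaled DP, higher in 3 of 5 mice, with a log2 fold change of 0.03 (SE 0.13, adjusted p = 0.873). It was called between the SP lineages, as were *Dusp1*, *Dusp5* and *Dusp6* in the early gates. Early CD4 SP cells held 121, 131, 71.3, 91.9 and 42.0 CPM and early CD8 SP cells 45.8, 47.5, 35.0, 34.3 and 24.5 CPM, lower in 5 of 5 mice by 2.38-fold, a log2 fold change of -1.25 (SE 0.15, adjusted p = 2.47e-07). Against resting DP, *Dusp10* was lower in early CD8 SP by -0.97 (SE 0.15, adjusted p = 1.97e-06) and in late CD8 SP by -0.93 (SE 0.14, adjusted p = 8.14e-07), in 5 of 5 mice each. Late CD4 SP cells were lower too, at -0.44 (SE 0.13, adjusted p = 0.00537).

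**Figure D1:**
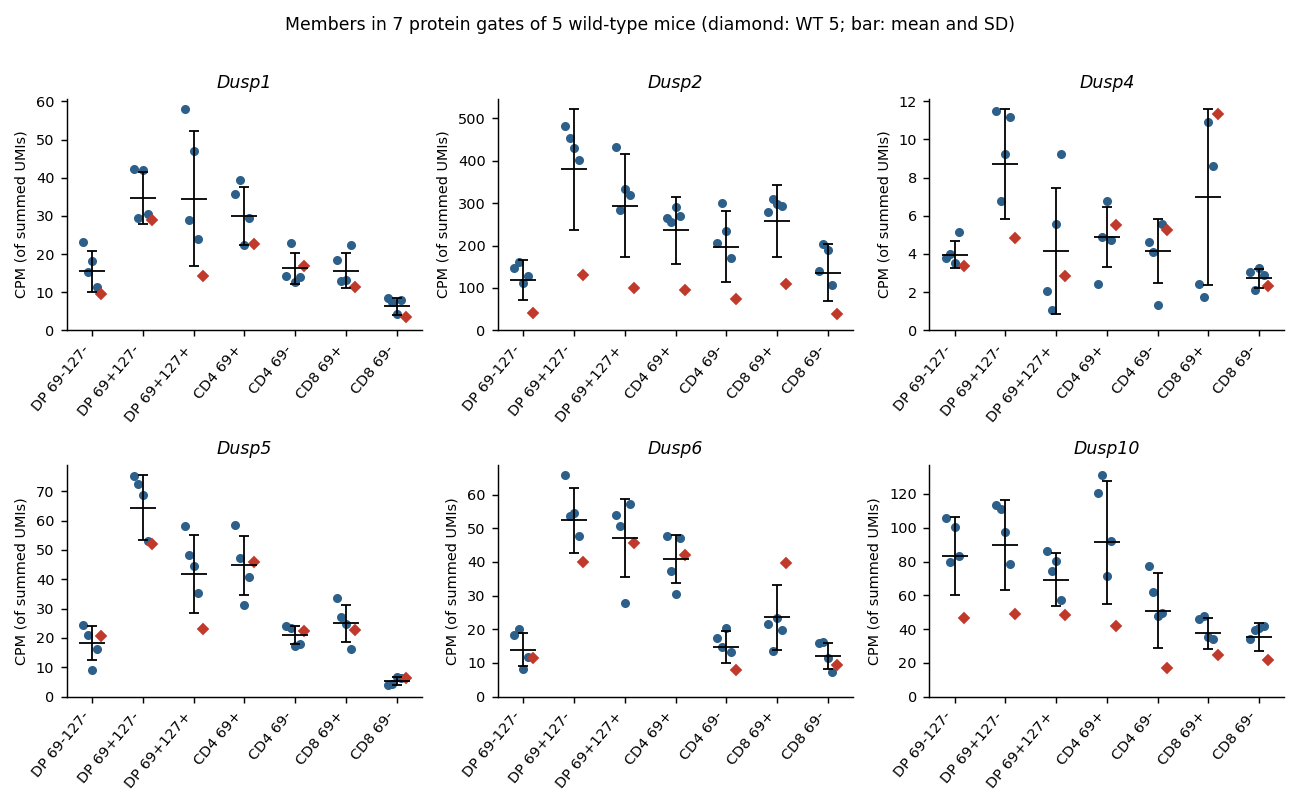
CPM of each member (y axis, CPM of summed UMIs, from 0) in the 7 surface-protein gates (x axis) of 5 wild-type mice, 1 point a mouse, with the mean and SD as bars and WT 5 as a diamond. Dusp1, Dusp2, Dusp5 and Dusp6 are higher in signaled DP than in resting DP in all 5 mice, while Dusp10 has its lowest means in the CD8 gates.

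The counts of members are read against all genes. In signaled against resting DP, 5 of 6 members were higher and none lower, where 20.8% of all genes tested were called higher and 41.8% in either direction. In early CD4 SP against resting DP, 5 of 6 members were higher, against 28.9% of all genes higher and 59% in either direction, and *Dusp10* was among the 5 at 0.28 (SE 0.12, adjusted p = 0.0472). Late DP had 4 of 6 members higher, against 19.1% higher and 38.1% in either direction. In late CD4 SP 3 of 6 members were called (58.7% of all genes), in early CD8 SP 4 of 6 (52.8%) and in late CD8 SP 4 of 6 (52.4%). Early CD8 SP against early CD4 SP called 4 of 6 members, all lower, where 8.16% of all genes were lower and 16.6% called in either direction. Late CD8 SP against late CD4 SP called 4 of 6, all lower, against 20.8% lower and 43.7% in either direction. With scaling by library size in place of TMM the members' log2 fold changes against resting DP moved. The median move of the members was -0.17, -0.28, -0.21 and -0.26 for early CD4, late CD4, early CD8 and late CD8 SP. Among calls of all genes, the share that were higher fell from 48.9 to 34.0%, 46.9 to 27.6%, 48.9 to 31.0% and 49.1 to 26.1%. For early CD8 against early CD4 SP that share went from 50.7 to 40.4%. This scaling ended the calls of *Dusp10* in early CD4 SP, *Dusp5* in late CD4 SP and *Dusp2* in late CD8 SP, and none of these 3 turned its direction.

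Of the 33 member calls between stages, 26 held in each of 13 alternatives. Leaving out 1 mouse ended the call of *Dusp10* in early CD4 SP (WT 1, WT 2 or WT 4), *Dusp5* in late CD4 SP (WT 2) and *Dusp2* in late CD8 SP (WT 3). The call of *Dusp1* in early CD8 against early CD4 SP ended without WT 2 (adjusted p = 0.0599), and that of *Dusp10* in late CD8 against late CD4 SP without WT 1 (adjusted p = 0.167). Higher gate thresholds ended the call of *Dusp5* in early CD8 against early CD4 SP, and lower ones that of *Dusp5* in early CD8 SP against resting DP. Without the mice of the last 4 lanes *Dusp6* was also called in late CD4 SP, at 0.54 (adjusted p = 0.0398).

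Other genes of the pathway were read in the same comparison, in which 20.8% of all genes were called higher. Of 18 genes of the Ras-MEK-ERK cascade, all tested, 5 were higher in signaled than in resting DP and none lower, led by the Ras regulators *Rasa2* (0.71 on the log2 scale) and *Rasgrp1* (0.69). Of 12 tested genes of the JNK and p38 cascade 5 were higher, led by the p38 beta gene *Mapk11* (2.71) and *Mapkapk2* (0.99), a kinase downstream of p38. Of the MAP kinase phosphatases outside the 6 members, 1 of 2 tested was higher, *Dusp16* at 0.48, and of 6 tested atypical dual-specificity phosphatases 2 were higher and 2 lower. Among 13 tested genes that ERK signaling is known to induce, 11 were higher and 1 lower, with a median log2 fold change of 1.48 where that of all genes was 0.0079. These included *Nr4a1* (3.30) and *Cd69* (2.92), whose protein defined the gate, while *Phlda1* was lower (-1.18).

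Genes that tissue dissociation can induce were followed beside the members, since *Dusp1* is among the genes cells induce under stress. Of 15 tested, 6 were higher and 4 lower in signaled DP, with a median log2 fold change of 0.043, and *Fos* was among the higher ones at 2.47. Summed over the list, their level in the wild-type mice ran from 3308 to 5782 CPM in resting DP and from 3272 to 5893 CPM in signaled DP. Myeloid markers, 7 genes of which none was at 0, summed to 141 to 212 CPM and 152 to 188 CPM in these gates. The part of either list in the members' differences was not tested.

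The lineage comparison set CD8-fated against CD4-fated mice, with a term for the family. The DP gates held unlike cells in some mice. In resting DP, *Runx3*, a CD8 lineage gene, stood at 60.5 to 154 CPM and *S1pr1* at 16.8 to 122 CPM in the F5 and OT-I mice, against 11.09 to 19.1 CPM and 1.14 to 8.27 CPM in the wild-type mice. The CD4-fated mice had means of 28.3 CPM of *Runx3* and 7.27 CPM of *S1pr1* there, also above the wild-type means of 16.1 and 3.68 CPM. In signaled DP, *Runx3* stood at 109 to 333 CPM in the CD8-fated and 24.2 to 89.7 CPM in the CD4-fated mice. The part of these cells in the comparisons was not tested. In resting DP none of 5 members tested was called by edgeR, 0 at an unadjusted p under 0.05 and 0 by DESeq2, with 0.0102% of all genes called. In signaled DP none of 5 was called, 3 had an unadjusted p under 0.05 and DESeq2 called 0, with 0.196% of all genes called. *Dusp1*, *Dusp5* and *Dusp6* were those 3, at -0.57 (SE 0.18, adjusted p = 0.415), -0.55 (SE 0.19, adjusted p = 0.475) and -0.49 (SE 0.18, adjusted p = 0.583) on the log2 scale. *Dusp6* there ran over 21.0 to 41.0 CPM with a median of 27.4 in 6 CD8-fated mice and 25.3 to 51.9 CPM with a median of 47.6 in 6 CD4-fated mice, and the groups overlapped.

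In late DP none of 5 members was called, 2 had an unadjusted p under 0.05 and DESeq2 called 0, with 0.96% of all genes called. *Dusp10* stood at 45.0, 51.6, 69.6 and 49.3 CPM in MHCII-/- 1, MHCII-/- 2, OT-I 1 and OT-I 2. In the 6 CD4-fated mice it ran from 49.8 to 159 CPM with a median of 135, and OT-II 1 at 49.8 CPM was the CD4-fated mouse within the CD8-fated range. The highest was AND 2, whose late DP cells held 1416 CPM of *Cd8a* against 307 CPM in AND 1, and without AND 2 *Dusp10* was not called either (-1.09, adjusted p = 0.117). The log2 fold change was -1.09 (SE 0.27, adjusted p = 0.0781), and that of *Dusp5* was -1.29 (SE 0.39, adjusted p = 0.186). With the family divided further by experiment and lane set, a choice made after seeing the data, both were called, *Dusp10* at -1.22 and *Dusp5* at -1.41, where 4.61% of all genes were. Both were also called without the mice of the last 4 lanes, at -1.23 and -1.63, where 4.02% of all genes were. F5 mice gave under 20 late DP cells and took no part in this gate, so that with the family as a term the AND mice had no partner and the fold change rested on 4 against 4 mice.

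The early SP gates were compared next. Early CD8 SP cells of CD8-fated mice were set against early CD4 SP cells of CD4-fated mice, and 3 of 6 members were called, all lower in the CD8-fated mice, where 12.3% of all genes were called. *Dusp1* ran over 6.42 to 17.96 CPM with a median of 11.2 in 6 CD8-fated mice and over 9.69 to 37.2 CPM with a median of 28.0 in 6 CD4-fated mice. The lowest CD4-fated values were those of OT-II 1 (12.8 CPM) and OT-II 2 (9.69 CPM), which made the groups overlap, and the log2 fold change was -1.08 (SE 0.22, adjusted p = 0.00557).

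*Dusp10* ran over 31.2 to 61.8 CPM with a median of 42.6 in CD8-fated and 29.1 to 118 CPM with a median of 79.3 in CD4-fated mice, a log2 fold change of -0.85 (SE 0.20, adjusted p = 0.0119). OT-II 2, at 29.1 CPM, was below all CD8-fated mice. *Dusp6* ran over 13.97 to 26.8 CPM with a median of 16.6 and 21.8 to 32.4 CPM with a median of 28.2, a log2 fold change of -0.66 (SE 0.18, adjusted p = 0.0278). For *Dusp5* the log2 fold change was -0.90 (SE 0.29, adjusted p = 0.0586), and it was -1.01 and called with experiment and lane set as terms (22.8% of all genes), and -1.06 and called without the mice of the last 4 lanes (18.4%). *Dusp2* was at 214 ± 96.1 CPM and 212 ± 75.8 CPM (mean ± SD, n = 6 each), with a log2 fold change of -0.05 (SE 0.23, adjusted p = 0.933).

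Markers of other cells were read in the same sums. Stromal and epithelial markers, 7 genes of which 1 was at 0 in each lineage, summed to 50.3 to 71.8 CPM in the CD8-fated and 79.3 to 132 CPM in the CD4-fated mice, and their part in the differences was not tested. Myeloid markers summed to 86.3 to 228 CPM and 95.6 to 138 CPM. The call of *Dusp6* ended without AND 2, MHCI-/- 1, MHCI-/- 2, MHCII-/- 1 or MHCII-/- 2, each left out singly. The call of *Dusp10* ended when clusters that were mostly transgenic were left out (adjusted p = 0.0864) and held in the other 23 of 24 alternatives, while that of *Dusp1* held in 24 of 24.

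The late SP gates followed. Late CD8 SP of CD8-fated against late CD4 SP of CD4-fated mice called none of 5 members with edgeR, 1 at an unadjusted p under 0.05 and 1 by DESeq2, where 10.4% of all genes were called. That 1 was *Dusp10*, at -0.45 (SE 0.14, adjusted p = 0.0641), and without the mice of the last 4 lanes it was called at -0.52, where 15.7% of all genes were. In the early CD4 SP gate of both lineages none of 6 was called, 0 at an unadjusted p under 0.05 and 0 by DESeq2 (1.02% of all genes), and in the late CD4 SP gate none of 5, 1 at an unadjusted p under 0.05 and 0 by DESeq2 (0.0251% of all genes). F5 mice gave too few cells for the early and F5 1 for the late CD4 SP gate. These gates also held unlike cells, since *Pdcd1*, which encodes PD-1, stood at 191 and 250 CPM in early CD4 SP cells of the MHCII-/- mice against 8.48 to 23.0 CPM in the CD4-fated mice, and *Zbtb7b*, a CD4 lineage gene, at 11.36 and 13.3 CPM against 56.1 to 109 CPM. In the late CD4 SP gate *Pdcd1* stood at 113 and 143 CPM in the MHCII-/- mice against 6.54 to 17.1 CPM. With library-size scaling the members' log2 fold changes in the early CD4 SP gate moved by a median of 0.12. Among calls of all genes, the share that were higher went from 36.2 to 52.6%.

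The late CD8 SP gate of both lineages called 2 of 6 members, where 4.8% of all genes were called. *Dusp2* was at 74.6, 44.7 and 19.4 CPM in AND 1, OT-II 1 and OT-II 2, the CD4-fated mice with enough cells there. It ran over 77.0 to 323 CPM with a median of 202 in the 6 CD8-fated mice, with no overlap and a log2 fold change of 1.75 (SE 0.43, adjusted p = 0.0418). *Dusp6* was at 3.28, 2.53 and 0 CPM against 8.36 to 16.2 CPM with a median of 12.97, a log2 fold change of 2.15 (SE 0.47, adjusted p = 0.0247). The cells of the CD4-fated mice in this gate went against its name, since their *Rag1* averaged 423 CPM and their myeloid markers summed to 554 to 768 CPM, against 99.4 to 502 CPM in the CD8-fated mice. These 2 differences therefore compare unlike cells. MHCI-/- mice gave too few cells here, so that the MHCII-/- mice had no partner within their family, and *Dusp6* would have passed the filter on low counts through the CD8-fated mice alone. Both calls ended without MHCII-/- 1, MHCII-/- 2 or OT-I 1, and that of *Dusp2* without F5 1, each left out singly.

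To compare lineages along 1 order, 19050 lineage-restricted cells from signaled DP to mature SP were ordered by diffusion pseudotime, with all *Dusp* genes left out. They were divided into 10 bins of equal cell number. Of 19791 lineage-restricted cells on this path, 741 on the RNA branch of the other lineage had been left out. *Rag1* RNA was highest in bin 1, *Itm2a* peaked in bin 4 in CD4-fated and in bin 3 in CD8-fated cells, and *Klf2* and *S1pr1*, genes of mature cells ready to leave the thymus, rose in bins 7 to 10. CD8-fated cells came from MHCII-/- and OT-I mice in bins 2 to 10, because F5 mice gave too few. With the family as a term the AND mice then had no partner, and fold changes in bins 2 to 10 rested on 4 against 4 mice. The bins were not matched in every marker. In bin 4, CD4-fated cells held 4438 CPM of *Itm2a* and CD8-fated cells 1202 CPM, *Cd69* stood at 306 and 108 CPM, and in bin 5 *Itm2a* stood at 3381 and 801 CPM. The part of this offset in the members' differences was not tested.

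Wild-type cells placed in the same bins showed each member's course. *Dusp2* rose from 196 ± 75.3 CPM in bin 1 to 473 ± 147 in bin 3 and stood at 208 ± 85.8 in bin 5 (mean ± SD, n = 5 here and in this paragraph). *Dusp4* had its highest mean in bin 3 as well, at 12.97 ± 6.81 CPM. *Dusp6* and *Dusp1* had theirs in bin 4, at 85.6 ± 20.2 and 44.5 ± 12.2 CPM, after 39.7 ± 13.5 and 17.8 ± 2.25 in bin 1. *Dusp5* stood between 40.3 ± 12.3 and 48.2 ± 9.77 CPM in bins 2 to 5. By bin 10 *Dusp1*, *Dusp5* and *Dusp6* were at 8.89 ± 3.42, 11.03 ± 2.32 and 17.4 ± 1.48 CPM, whereas *Dusp2* remained at 187 ± 59.6. *Dusp10* was at 120.4 ± 46.3 CPM in bin 1, 75.2 ± 31.1 in bin 3, 108 ± 29.3 in bin 5 and 40.4 ± 13.7 in bin 10. Not all neighboring bins overlapped in their mouse values. *Dusp1* ran from 13.9 to 19.9 CPM in bin 1 and from 25.4 to 42.0 CPM in bin 2. *Dusp6* ran from 50.6 to 84.2 CPM in bin 5 and from 33.1 to 47.4 CPM in bin 6. The values over bins are a description without a test.

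**Figure D2:**
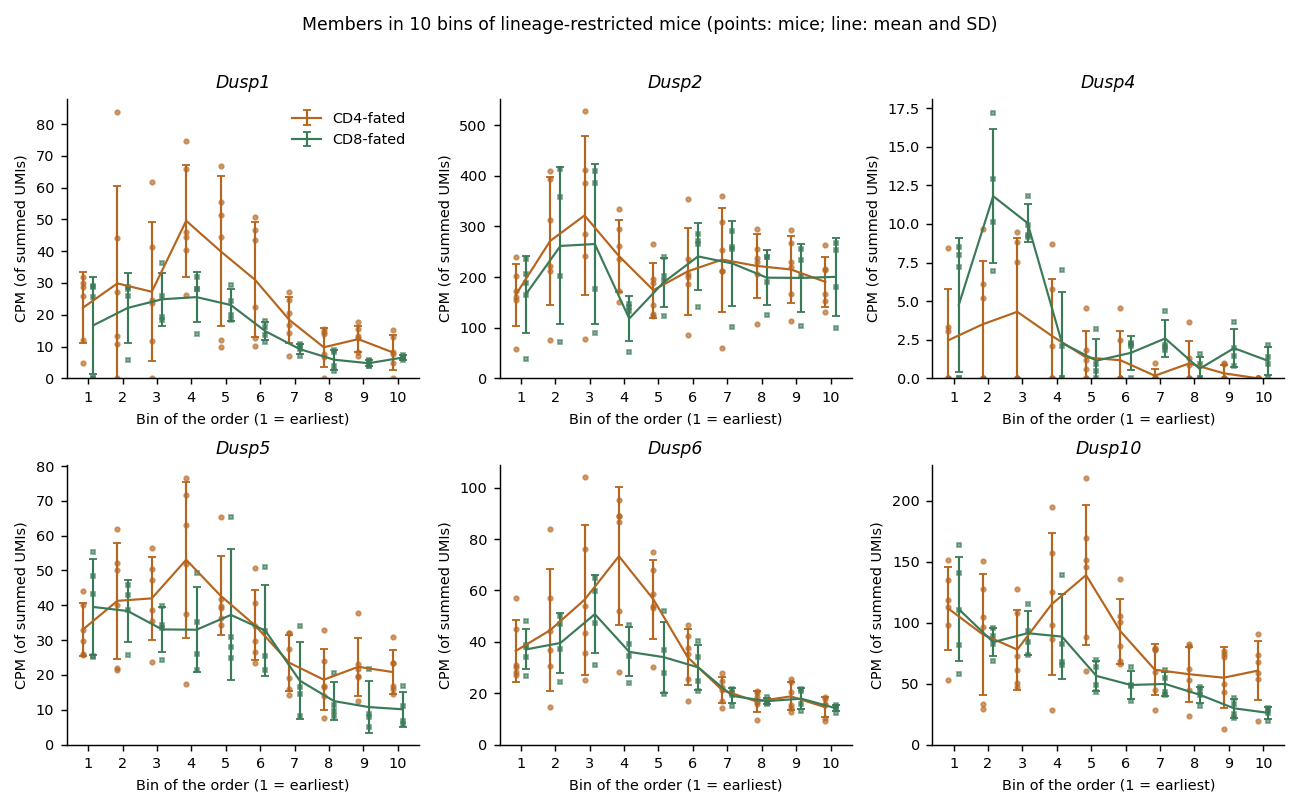
CPM of each member (y axis, CPM of summed UMIs, from 0) in 10 bins of pseudotime (x axis) for CD4-fated and CD8-fated mice, 1 point a mouse, with lines through the means and SD as bars. Dusp2 in bin 4 is 52.0 to 147 CPM in CD8-fated and 151 to 335 CPM in CD4-fated mice, and Dusp10 in bin 10 is 19.2 to 30.2 CPM and 19.3 to 90.5 CPM.

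Members were called in 3 bins, each time lower in CD8-fated mice. In bin 4, 1 of 5 members tested was called, where 0.679% of all genes were. *Dusp2* stood at 140.5, 147, 132 and 52.0 CPM in MHCII-/- 1, MHCII-/- 2, OT-I 1 and OT-I 2. In the 6 CD4-fated mice it ran from 151 to 335 CPM with a median of 248, and the partners of the CD8-fated mice within families, MHCI-/- 1, MHCI-/- 2, OT-II 1 and OT-II 2, stood at 294, 335, 261 and 151 CPM. The groups did not overlap, and the log2 fold change was -1.15 (SE 0.25, adjusted p = 0.0425), in a bin where *Itm2a* and *Cd69* also had lower means in the CD8-fated mice. *Dusp6* in this bin stood at 36.1 ± 9.50 (n = 4) and 73.4 ± 26.9 CPM (n = 6), a log2 fold change of -1.03 (SE 0.26, adjusted p = 0.0965). The call of *Dusp2* ended in 11 of 24 alternatives, with adjusted p values up to 0.280, among them those without AND 1, AND 2, OT-II 1 or any 1 MHC-deficient mouse.

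In bin 5, 1 of 5 members was called, where 1.97% of all genes were. *Dusp10* stood at 49.1, 43.3, 69.2 and 63.6 CPM in the CD8-fated mice, in the same order. It ran from 60.5 to 219 CPM with a median of 148 in the CD4-fated mice, where OT-II 1 at 60.5 CPM was lowest and AND 2 at 219 CPM highest. The partners within families stood at 146, 151, 60.5 and 88.1 CPM. The log2 fold change was -1.20 (SE 0.28, adjusted p = 0.0348). *Dusp2*, called a bin earlier, was at 189.6 ± 48.4 and 174 ± 54.2 CPM here, a log2 fold change of 0.16 (SE 0.23, adjusted p = 0.942). The call of *Dusp10* ended in 7 of 24 alternatives, with adjusted p values up to 0.458, among them those without AND 1, AND 2 or any 1 MHC-deficient mouse.

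In bin 10, the most mature cells, 2 of 4 members were called, where 18.7% of all genes were. *Dusp5* stood at 5.94, 6.65, 10.95 and 16.9 CPM in the CD8-fated mice. It ran from 14.5 to 30.9 CPM with a median of 20.1 in the CD4-fated mice, and all but OT-I 2 of the CD8-fated mice lay below them. The partners within families stood at 16.8, 14.5, 23.4 and 30.9 CPM. The log2 fold change was -1.15 (SE 0.26, adjusted p = 0.00677). *Dusp10* stood at 26.0, 30.2, 28.5 and 19.2 CPM, against 19.3 to 90.5 CPM with a median of 63.4 in the CD4-fated mice, of which MHCI-/- 1, MHCI-/- 2 and OT-II 1 had 54.1, 59.1 and 67.8 CPM. OT-II 2, at 19.3 CPM, was the CD4-fated mouse within the CD8-fated range, and the log2 fold change was -0.96 (SE 0.24, adjusted p = 0.0102). *Dusp5* would have passed the filter on low counts through the CD4-fated mice alone. The call of *Dusp10* ended without MHCI-/- 2 or MHCII-/- 1 (adjusted p up to 0.0562). That of *Dusp5* held in 23 of 23 alternatives, most of which kept the same filter on low counts.

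No member was called in the other 7 bins, where edgeR tested 35 member values in all, 7 had an unadjusted p under 0.05 and DESeq2 called 0. The share of all genes called was 0.0191% in bin 1, 0.0163% in bin 2, 0.0152% in bin 3, 2.61% in bin 6, 2.87% in bin 7, 5.51% in bin 8 and 7.57% in bin 9. *Dusp10* in bin 6 stood at 48.9 ± 11.5 CPM in CD8-fated and 92.9 ± 26.7 CPM in CD4-fated mice, with a log2 fold change of -0.77 (SE 0.22, adjusted p = 0.0886). *Dusp1* in bin 9 stood at 4.76 ± 0.976 and 12.3 ± 4.05 CPM, on 24 and 77 UMIs. Its log2 fold change was -1.09 (SE 0.39, adjusted p = 0.104). *Dusp5* in bin 9 was at -1.27 (SE 0.38, adjusted p = 0.0513).

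Dividing the family by experiment and lane set raised the number of member values called from 4 to 14 of 49, and more of all genes were called too, 4.77% in bin 4, 6.81% in bin 5, 9.16% in bin 6, 10.1% in bin 7, 19.99% in bin 9 and 34.5% in bin 10. These included *Dusp2*, *Dusp6* and *Dusp5* in bin 4 at -1.17, -1.14 and -0.98, and *Dusp10*, *Dusp5* and *Dusp6* in bin 5 at -1.37, -0.84 and -0.81. In bin 6 *Dusp1* and *Dusp10* were called lower at -0.95 and -0.81 and *Dusp2* higher at 0.40. Further calls were *Dusp1* in bin 7 at -1.08, *Dusp10* and *Dusp5* in bin 9 at -0.63 and -1.33, and the same pair in bin 10 at -0.97 and -1.14. Leaving out the mice of the last 4 lanes gave 15 of 50, with 5.66 to 30.4% of all genes called in bins 4 to 10. The calls it added to the 4 were *Dusp5* and *Dusp6* in bin 4, *Dusp1*, *Dusp5* and *Dusp6* in bin 5, *Dusp1* and *Dusp10* in bin 6, *Dusp1* in bin 7, *Dusp5* and *Dusp10* in bin 9, and *Dusp2*, higher at 0.39, in bin 10. Both choices were made after seeing the data.

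Whether the lineage difference changed along the order was tested directly, with counts summed over bins 7 to 10 against bins 1 to 4. This fit had the mouse as a block and no term for the family, and the AND mice took part in it. The change was called for 1 of 6 members, *Dusp10*, where 14.6% of all genes were called. Its lineage difference was lower in late than in early bins by -0.62 (SE 0.18, adjusted p = 0.0258) on the log2 scale. *Dusp1* and *Dusp5* were at -0.73 (SE 0.25, adjusted p = 0.0648) and -0.61 (SE 0.24, adjusted p = 0.104), and *Dusp2* and *Dusp6* at 0.20 (SE 0.19, adjusted p = 0.532) and 0.18 (SE 0.19, adjusted p = 0.572). Without the mice of the last 4 lanes *Dusp1* was called at -0.82 and *Dusp10*, at -0.55, was not (adjusted p = 0.0759, among 20 alternatives of which 8 ended the call, those without MHCI-/- 1, MHCI-/- 2, OT-I 1 or OT-I 2 included).

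**Figure D3:**
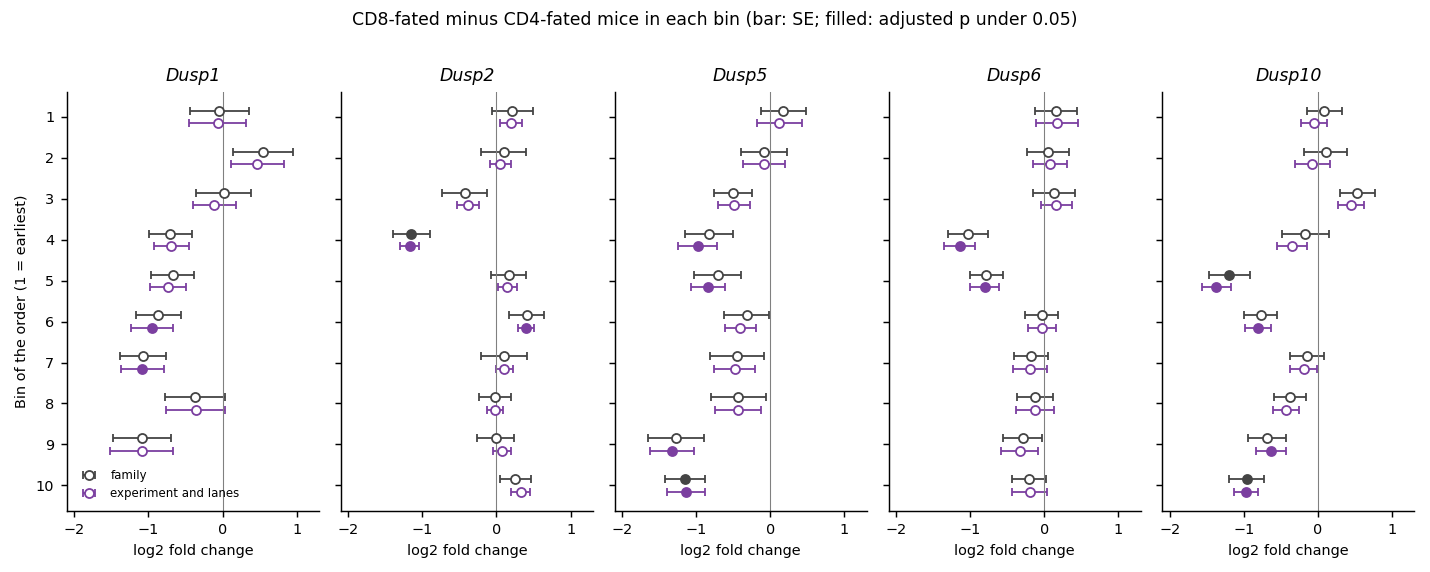
Log2 fold change of members, CD8-fated minus CD4-fated mice (x axis, 0 is no difference), in each of 10 bins (y axis, earliest at the top), with SE as bars and filled points at an adjusted p under 0.05. Dusp2 in bin 4 (-1.15), Dusp10 in bins 5 and 10 (-1.20 and -0.96) and Dusp5 in bin 10 (-1.15) are filled in the fit with the family alone, and more are filled with experiment and lane set as terms.

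Other pathway genes were read in the same comparisons. In the early SP gates, where 12.3% of all genes were called, 2 of 12 tested genes of the JNK and p38 cascade were lower in CD8-fated mice, *Mapk11* at -2.03 and *Map3k1*, an upstream kinase, at -0.44, and none was higher. None of the 18 genes of the Ras-MEK-ERK cascade was called. Of 13 ERK-responsive genes 2 were lower, *Phlda1* at -1.40 and *Junb* at -0.55, and none was higher. In bin 4 (0.679% of all genes called), 3 of 11 ERK-responsive genes were lower and none higher, among them *Id3* at -1.35 and *Egr2* at -1.67, both induced by receptor signaling. None of 16 genes of the Ras-MEK-ERK and 11 of the JNK and p38 cascade was called there. In bin 5 (1.97%), 2 of 12 genes of the JNK and p38 cascade were lower, *Mapk11* at -1.69 and *Mapkapk2* at -1.29, and 0 of 16 of the Ras-MEK-ERK cascade and 0 of 12 ERK-responsive genes were called. In bin 10 (18.7%), 1 of 15 genes of the Ras-MEK-ERK cascade was lower, *Rasgrp1* at -0.69. There 2 of 11 of the JNK and p38 cascade were lower, *Map3k1* at -0.63 and *Map2k6* at -1.12, and 1 of 8 ERK-responsive genes was higher, *Myc* at 0.98. Of 13 dissociation-responsive genes in that bin 5 were higher and 4 lower, and their part in the members' differences was not tested.

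Cells were next divided within a stage by surface protein in the 5 wild-type mice. CD5 rises with the strength of receptor signaling, and the tertile of signaled DP cells with the most CD5 was set against the tertile with the least. Of 5 members tested, 1 was called, where 9.44% of all genes were. *Dusp5* stood at 82.1, 91.9, 79.2, 76.3 and 91.2 CPM in CD5-high cells of WT 1 to WT 5 and at 80.1, 70.2, 62.2, 27.3 and 25.9 CPM in CD5-low cells. CD5-high cells were higher in 5 of 5 mice, by the most in WT 4 and WT 5, the unsorted mice with the most *Rag1* in this gate (its part was not tested), and the log2 fold change was 0.77 (SE 0.21, adjusted p = 0.0366). *Dusp2*, *Dusp6* and *Dusp10* were higher in 4, 4 and 5 of 5 mice, with log2 fold changes of 0.50 (SE 0.17, adjusted p = 0.0928), 0.69 (SE 0.24, adjusted p = 0.0956) and 0.40 (SE 0.15, adjusted p = 0.119). The call of *Dusp5* ended in 6 of 13 alternatives, among them those without WT 3, WT 4 or WT 5, and without the mice of the last 4 lanes its adjusted p was 0.103. PD-1 marks strongly signaled cells, and the 10% of signaled DP cells with the most PD-1 called none of 5 members with edgeR, 1 at an unadjusted p under 0.05, *Dusp2* at 0.29 (SE 0.11, adjusted p = 0.207), and 0 of the 2 that DESeq2 tested, where 2.7% of all genes were called.

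CD25, the IL-2 receptor alpha chain, marks regulatory T cells among CD4 SP cells. The 5% of CD4+CD8- cells with the most CD25, 48 to 87 cells a mouse, had 192 ± 39.2 CPM of *Foxp3* RNA against 5.69 ± 1.55 in the rest. Of 6 members 3 were called, where 9.16% of all genes were. *Dusp4* stood at 40.0, 31.4, 51.8, 18.6 and 21.0 CPM in CD25-high cells of WT 1 to WT 5 and at 0.772, 3.21, 2.52, 3.91 and 4.20 CPM in the rest. *Dusp4* passed the filter on low counts through its CD25-high sums alone, so that a tested *Dusp4* had to differ here, and it was also called without that filter. Every CD25-high value lay above every other value, on 4 to 16 UMIs a mouse, and the log2 fold change was 3.48 (SE 0.45, adjusted p = 0.000157), or 11.2-fold.

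*Dusp5* stood at 155, 107, 71.8, 59.4 and 121 CPM in CD25-high cells and at 42.3, 37.3, 23.6, 31.2 and 32.3 CPM in the rest, again without overlap, with a log2 fold change of 1.51 (SE 0.17, adjusted p = 5.24e-05). *Dusp6* went the other way. It stood at 19.98, 6.28, 39.9, 9.28 and 0 CPM and 40.3, 32.7, 25.9, 38.2 and 34.4 CPM, lower in 4 of 5 mice and higher in WT 3, with a log2 fold change of -1.34 (SE 0.40, adjusted p = 0.0499). The 0 of WT 5 allows up to 15.7 CPM by counting error alone. The level that the filter on low counts asks for was reached by 3 of 5 CD25-high and 5 of 5 other sums. *Dusp6* thus passed that filter through the rest alone. The calls of *Dusp4* and *Dusp5* held in 13 of 13 alternatives. For *Dusp4* this was in part fixed in advance, since all but the alternative without a count filter kept the filter passed through CD25-high sums alone. The call of *Dusp6* ended in 9 of 13, among them those without WT 1, WT 2, WT 4 or WT 5, each left out singly, and without the mice of the last 4 lanes (adjusted p = 0.098).

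The same split in lineage-restricted mice was a description without a test. In MHCI-/- 1 and MHCI-/- 2, which have diverse receptors, CD25-high cells held 11 and 19 *Dusp4* UMIs, or 23.8 and 27.3 CPM, against 3.53 and 2.18 CPM in the rest, and their *Foxp3* was at 283 and 176 CPM. In AND 1, OT-II 1 and OT-II 2 the cells with the most CD25 held 0 *Dusp4* UMIs, which allows up to 7.74, 5.40 and 15.1 CPM by counting error alone, and AND 2 held 1 UMI. *Foxp3* in those 4 mice was at 0 to 2.58 CPM, so that the top 5% by CD25 did not hold the same kind of cell in them. In OT-I 1, 25 such cells held 0 *Dusp4* UMIs, which allows up to 16.3 CPM, with *Foxp3* at 21.8 CPM. In OT-I 2, 26 cells held 1 UMI, with *Foxp3* at 0. Of 11 tested ERK-responsive genes, 2 were higher in wild-type CD25-high cells, *Myc* (0.87) and *Junb* (0.59), and 3 lower, among them *Egr1* (-1.59) and *Id3* (-0.76). Of 14 dissociation-responsive genes 6 were higher, led by *Jun* at 2.61, and 1 lower, and their part in the members' differences was not tested.

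**Figure D4:**
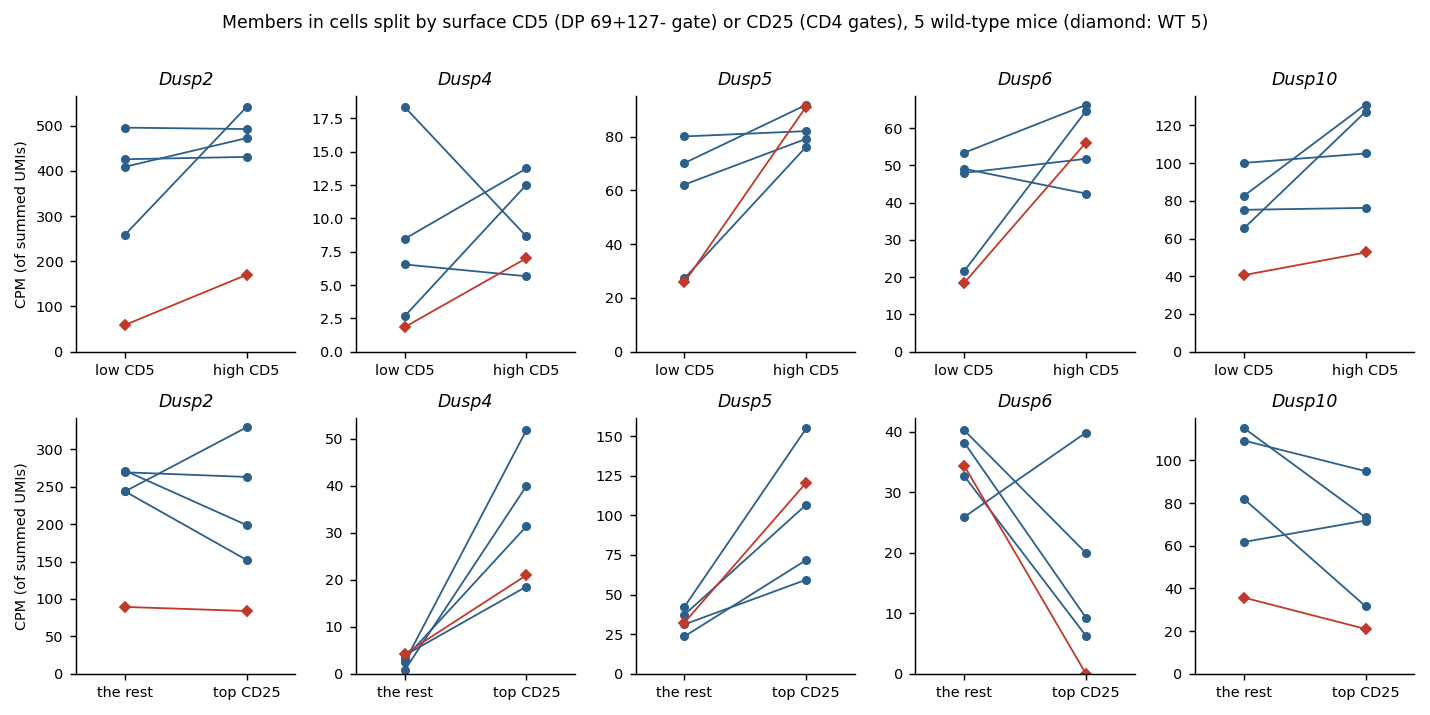
CPM of members (y axis, CPM of summed UMIs, from 0) in cells of 5 wild-type mice split by CD5 protein within signaled DP cells (upper row) and by CD25 protein within CD4+CD8- cells (lower row), with lines joining the values of a mouse and WT 5 as a diamond. Dusp4 and Dusp5 are higher in CD25-high cells in 5 of 5 mice, and Dusp6 is lower in 4 of 5.

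RNA clusters placed the members among cell types. The 69246 cells formed 21 clusters, built without any *Dusp* gene, most of which were named from marker genes as "-like" classes. Levels in wild-type mice are a description without a test, and the 12 clusters with at least 20 cells in 4 or 5 of these mice are given. The quiescent-DP-like clusters, of 9156, 5171 and 3398 cells over all mice, did not meet this rule. A highest cluster below is therefore the highest of these 12. A cluster led by *Tnfrsf9* and *Tnfrsf4* was left without a name, since its 10 leading genes held 3 markers of negative selection (*Ikzf2*, *Nr4a1* and *Gadd45b*) as well as *Foxp3*, the defining gene of regulatory T cells. It had the highest mean of *Dusp4* at 31.9 ± 11.98 CPM, *Dusp5* at 167 ± 43.0 CPM and *Dusp1* at 49.0 ± 15.2 CPM (mean ± SD, n = 5). It held 47.9 to 88.9% of CD25-high cells of the wild-type mice and 2.89 to 8.22% of the rest. Next in *Dusp4* and *Dusp5* came the signaled-DP-like cluster, at 9.51 ± 6.12 and 57.7 ± 22.2 CPM (n = 5).

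*Dusp2* was highest in the signaled-DP-like cluster at 519.9 ± 135 CPM and next in the *Tnfrsf9*-led cluster at 477 ± 134 CPM, and these did not differ beyond their spread. The CD4-SP-like (247 ± 36.5 CPM, n = 4) and CD8-SP-like clusters (236 ± 21.6 CPM, n = 4) were close to each other. *Dusp6* was highest in the CD4-SP-like cluster at 72.9 ± 7.08 CPM and the signaled-DP-like cluster at 69.2 ± 3.46 CPM, while the *Tnfrsf9*-led cluster held 15.5 ± 7.15 CPM and the CD8-SP-like cluster 20.6 ± 2.36 CPM. The name of the CD4-SP-like cluster is uncertain, since its marker score was higher for signaled DP (1.59) than for CD4 SP (1.41). Other names are uncertain in the same way. The CD8-SP-like cluster scored 2.12 for interferon and 1.92 for CD8 SP markers. The mature-SP-like cluster scored 1.96 for interferon and 1.70 for mature SP, and the myeloid-like cluster 4.38 for erythrocyte and 4.27 for myeloid markers. In the protein gates the mean of *Dusp6* was 52.3 CPM in signaled DP, 40.9 CPM in early CD4 SP and 14.7 CPM in late CD4 SP. *Dusp10* was highest in an unnamed cluster led by *Cd8a*, *Cd8b1* and *Ctsl* at 129 ± 31.0 CPM and in the CD4-SP-like cluster at 128 ± 26.5 CPM, which overlapped, and stood at 36.7 ± 7.56 CPM in the CD8-SP-like and 5.31 ± 5.13 CPM in the NKT-like cluster, the latter on 5 UMIs in 153 cells. In the largest cycling-like cluster *Dusp5* and *Dusp6* stood at 4.78 ± 0.796 and 1.94 ± 2.02 CPM, and *Dusp10* at 68.7 ± 6.76 CPM. The myeloid-like cluster held *Dusp6* at 44.3 ± 35.2 CPM on 54 UMIs.

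**Figure D5:**
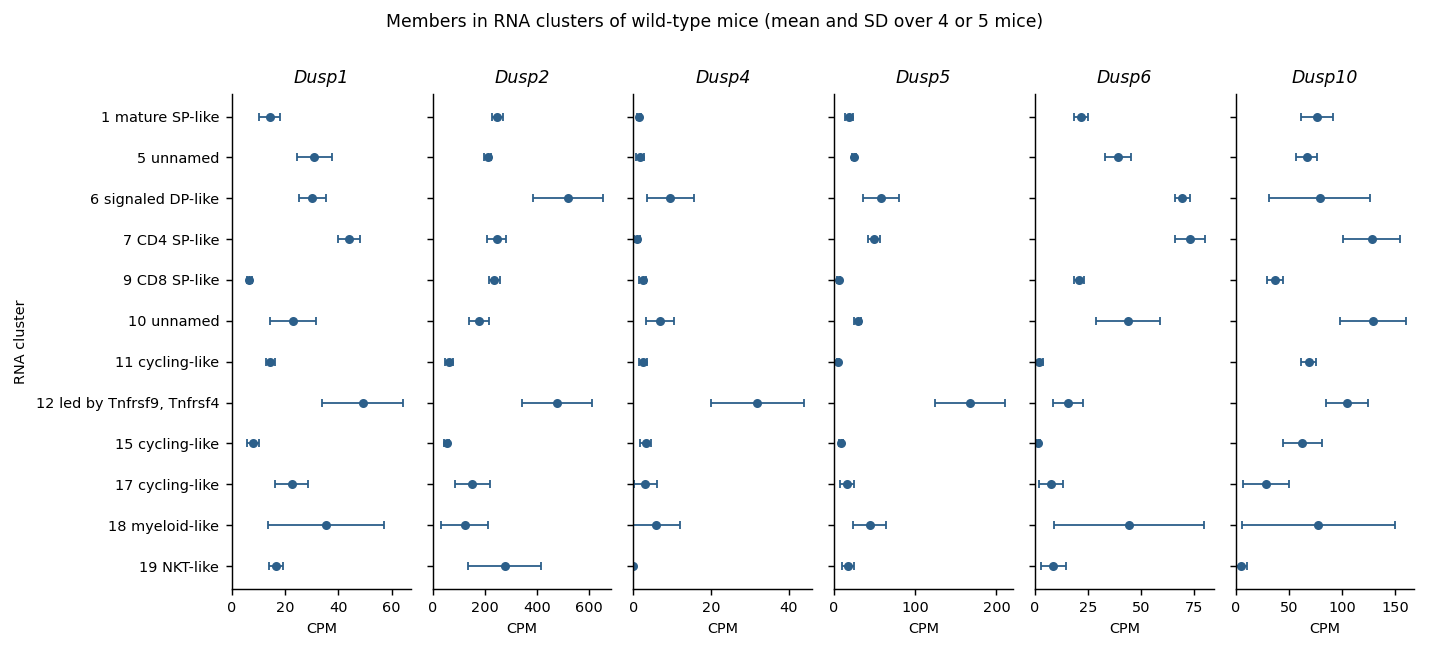
CPM of each member (x axis, from 0) in 12 RNA clusters of wild-type mice (y axis), with points for the mean and bars for the SD over 4 or 5 mice. Dusp4, Dusp5 and Dusp1 have their highest means in the cluster led by Tnfrsf9 and Tnfrsf4, Dusp2 in the signaled-DP-like cluster and Dusp6 in the CD4-SP-like cluster. For Dusp1 the Tnfrsf9-led and CD4-SP-like clusters overlap in their mouse values. The CD4-SP-like cluster had a higher marker score for signaled DP than for CD4 SP. The CD8-SP-like and mature-SP-like clusters scored higher for interferon, and the myeloid-like cluster for erythrocyte markers, than for their own.

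Likeness between genes was read over 106 sums of a mouse and a gate from 17 mice, which share mice, lanes and gates, as Pearson's r of log2 CPM and without a test. Among the members *Dusp5* and *Dusp6* were most alike at 0.735, and *Dusp4* and *Dusp10* least at -0.044. Of the other 9932 genes with enough counts, *Dusp1* was most like *Creb3* (0.786), *Slc37a3* and *Rnf41*, and *Dusp2* most like *Arpc2* (0.917), *Ndfip1* and *Ier2*. *Dusp5* was most like *Lmbrd1* (0.787), *Cdyl2* and *Pja1*, and *Dusp6* most like *Grap* (0.847), *Gdf11* and *Pja1*. *Dusp10* was most like *Trbc1* (0.790), *Wsb1* and *Lat*. For *Dusp4*, on its low counts, the highest r was 0.531, with *Atp11a*.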

How the data were processed

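The authors ran Cell Ranger 3.1.0 (per the submitters' processing notes) on the mm10 reference of 10x Genomics and deposited UMI counts, not normalized, per gene and antibody for each lane of a 10x 3′ library. The members and gene lists were chosen with earlier results of these data known.

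Cells were kept with at most 15% mitochondrial UMIs, 200 or more genes, protein UMIs between 1000 and 10000, and 70 or more proteins. That left 72054 of 85389 barcodes, with 42.1 to 94.1% of a lane kept, least in AND 2. Simulated-doublet scores removed 2808 more, 0.8% per 1000 barcodes of a lane, leaving 69246 cells with a median of 1493 to 7150 RNA UMIs a lane. Gates used ln(1 + protein UMIs per 10000), with a CD69 threshold shared by all lanes and CD4, CD8a and CD127 thresholds set per experiment or lane. Both lanes of WT 4 and of WT 5 were summed. Clusters (Leiden, leidenalg 0.10.2, scikit-learn 1.9.0) and diffusion pseudotime used no *Dusp* gene, and before the order was set experiments and lane sets were aligned by a Harmony-type correction. Python 3.11.15, numpy 2.4.6 and scipy 1.17.1 were used.

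Counts summed per mouse and gate, bin or split, from at least 20 cells, were tested in R 4.3.3 with edgeR 4.0.16 (filterByExpr, TMM, quasi-likelihood test, Benjamini-Hochberg over all genes tested), and DESeq2 1.42.0 was an alternative. The wild-type fits had the mouse and the lineage fits within a gate or bin a term for the family. The family joins AND to F5, MHCI-/- to MHCII-/- and OT-II to OT-I. The fit of late against early bins had the mouse as a block and no term for the family. The scripts were tested on simulated data. The alternatives were other scaling, no filter, kept doublets, 50 cells, moved gates, other orders, mice left out singly, no family, a replicate block, and, added after seeing the data, lane-set terms and the mice of the last 4 lanes left out. Named genes were the 6 members, the 2 called genes of each other list with the smallest p in each direction, and the 3 genes most correlated with each member. Intervals and limits for a count of 0 (3 counts a sum) cover counting error only. No value column was left unused (0).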

Additional observations from a re-analysis of the deposited data

Results flagged for a closer look

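Of 42 groups of 5 wild-type mice (6 members in 7 gates) 3 held a mouse far from the others, where chance flags about 1 in 20. The mouse was WT 5 and the gene *Dusp2* each time. *Dusp2* stood at 131 CPM in signaled DP cells of WT 5, where the other mice ran from 402 to 482 CPM. In early CD4 SP cells it stood at 95.7 CPM, where the others ran from 257 to 291 CPM, and in early CD8 SP cells at 109 CPM, where the others ran from 279 to 309.7 CPM. WT 5 came from the last 4 lanes of the third experiment, whose OT-I and OT-II mice were also lower in *Dusp2* than their partners, and the signaled DP cells of WT 5 held more *Rag1* (1318 CPM) than those of the other wild-type mice (25.1 to 612 CPM). The cause was not tested.

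The difference between CD8-fated and CD4-fated mice in *Dusp10* was called as changed between early and late bins. The change was -0.62 on the log2 scale, with an adjusted p of 0.0258 by edgeR's quasi-likelihood test of the lineage-by-stage term. This was 1 of 6 members, a count near the share of all genes called, 14.6%. DESeq2 called 0 of 6 members in this comparison, and 8 of 20 alternatives ended the call.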

How the results depend on the processing

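No member turned its direction among called values in any alternative. Of 48 stage values 33 were called, and 30 to 34 in every alternative. Of 43 lineage values in gates 5 were called, against 9 of 48 without a count filter and 8 of 40 with higher gate thresholds. Leaving out mostly transgenic clusters gave 3 of 42, and experiment and lane-set terms gave 9 of 43. Of 49 in bins 4 were called, against 7 of 60 without a filter and 7 of 49 without the family. Experiment and lane-set terms gave 14 of 49, and leaving out the mice of the last 4 lanes gave 15 of 50. For late against early bins 1 of 6 was called, against 0 by DESeq2, 3 without a filter, 3 with doublets kept and 0 with cells of the other branch kept. Of 16 values split by protein 4 were called, against 2 of 13 by DESeq2, 8 of 18 without a filter and 2 of 16 without the mice of the last 4 lanes. Leaving out 1 mouse gave 32 to 34 stage calls, 2 to 8 in gates (fewest without either MHCII-/- mouse, 3 without AND 1, most without OT-I 2), 1 to 11 in bins (1 without MHCI-/- 2 or MHCII-/- 1, 2 without AND 1, AND 2, MHCI-/- 1 or MHCII-/- 2, 8 without OT-I 1, 11 without OT-I 2), 0 to 1 for late against early, and 2 to 4 for splits by protein (2 without WT 4 or WT 5). Single-member values were followed only where the main fit or an alternative called the member in that comparison. Of 605 such values with 1 mouse left out 532 stayed on their side of the threshold, called or not, 28 gained a call and 45 lost one. Of 735 under other settings these were 618, 81 and 36. Counts over all genes moved by more than 1.5 times in 231 of 589 fits. In bin 4 they went from 45 to between 7 and 406, and in bin 9 from 589 to between 239 and 1556. The early SP gates went from 1147 to between 559 and 2126, and the CD25 split from 768 to between 319 and 1752. The member counts are read beside these and not as results about the members alone. The cause of these changes was not tested.

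A replicate block within families called 9 values in gates and 11 in bins and ended no call. The calls gained were *Dusp5* (-0.96) in the early SP gates, *Dusp10* (-0.44) in the late SP gates, *Dusp10* (-1.16) and *Dusp5* (-1.36) in late DP, *Dusp6* in bins 4 (-1.12) and 5 (-0.81), *Dusp10* (-0.81) and *Dusp2* (0.41) in bin 6, *Dusp1* (-1.07) in bin 7, and *Dusp10* (-0.64) and *Dusp5* (-1.33) in bin 9. More of all genes were called as well, 17.4% in the early SP gates, 12.7% in the late SP gates, 3.05% in late DP, 3.79% in bin 4, 5.32% in bin 5, 7.69% in bin 6, 8.38% in bin 7 and 17.97% in bin 9. The numbers share a lane set in OT-I and OT-II, where deviations of same-numbered mice correlated at 0.475 to 0.934 in gates, but not in the MHC-deficient mice (-0.0466 to 0.529 in gates, -0.0175 to 0.0766 in bins), and in AND and F5, whose numbers share an experiment, they correlated at -0.222 and 0.566 in resting and signaled DP, so the numbers were not taken to pair all mice.

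Depth limits *Dusp4*, with 1438 UMIs in the cells kept, which the count filter left out of all 10 bins. F5 mice gave too few cells beyond bin 1, MHC-deficient and transgenic mice differ in sort, and groups of 2 mice a genotype leave single genotypes untested.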
